A study of Mus musculus with 2 samples.

Results

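Of 2296 peaks of Mov10-associated RNA in newborn mouse brain, 802 lay on chromosomes 1 to 19 and X, and 324 of those had their midpoint in a protein-coding segment (CDS) of an annotated mRNA. The 324 coding peaks fell in 247 genes and made up 40.4% of the chromosome peaks (95% Clopper-Pearson interval 37.0% to 43.9%), against 202 peaks (25.2%) in 3' untranslated regions (3' UTRs) and 58 (7.23%) in 5' UTRs. That interval, like those of the shares given later, treats peaks as independent draws, which peaks of the same gene are not. A midpoint in both CDS and UTR of different transcripts counted as coding, and the shares are not scaled to the length of each region. A peak counted as coding when its midpoint lay in a CDS segment of any protein-coding GENCODE M21 transcript (mm10, the GRCm38 build) on the strand opposite that given for the peak. The opposite strand was used because it is where the coding segments lay, since only 2 peak midpoints fell in a CDS on the peak's own strand, 1 of them the coding peak of Gnas. No peak was left out for a low value. The peak list analysed here is shorter than the one the study's text describes, and every count and share is of the list as deposited.

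Brains of wild-type C57bl/6 pups at postnatal day 2 were pooled from 28 animals and homogenized without ultraviolet cross-linking. RNA recovered with an antibody against Mov10 (IP) was sequenced as 1 library, and the input RNA of the homogenate as 1 library. There is therefore no replicate check anywhere in what follows, and the pool holds every cell type of the brain. A library from an IP with an irrelevant antibody or from brain lacking Mov10 was not analysed here. Peaks were called where IP reads exceeded input reads, so enrichment itself was part of how each peak entered the list.

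Mov10 is an RNA helicase that works with the Argonaute proteins of the microRNA pathway and also restricts retrotransposons. Most microRNA sites studied in animals lie in 3' UTRs, while the coding sequence is the part of an mRNA that is swept by translating ribosomes. An RNA immunoprecipitation without cross-linking recovers RNA held in complexes with the protein. The study's methods name no step that cuts the RNA before the IP. A peak is therefore a stretch with more IP than input reads, and its place in the mRNA does not show where Mov10 was bound.

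Short stretches from 4 sets of coding peaks are shown, all read 5' to 3' on the mRNA strand from GENCODE M21 transcripts. The first set is the start of the coding sequence in the 4 peaks with the most IP reads among those that held a start codon and had no near-identical copy elsewhere, with the start codon in capitals. Their genes encode a translation elongation factor (Eef1a2), a subunit of respiratory complex I (Ndufb10), the imprinted neuronal protein necdin (Ndn) and a RING finger protein (Rnf10).
Eef1a2, chr2:181155377-181155406, minus strand: ATGggcaaggagaagacacacatcaacatt
Ndufb10, chr17:24724305-24724334, minus strand: ATGccagattcttgggacaaggatgtgtac
Ndn, chr7:62348408-62348437, plus strand: ATGtcggaacaaagtaaggacctgagcgac
Rnf10, chr5:115272384-115272413, minus strand: ATGccgcagagctcccccagcgccgccgcc

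The second set is the most C-rich 30 bases of 2 coding peaks with a high C content, with each CCCC in capitals. C1qbp encodes a mitochondrial matrix protein and Mtss1l a membrane-bending protein.
C1qbp, chr11:70982897-70982926, minus strand: CCCCgcgccctcggcgccgccgcctccggc
Mtss1l, chr8:110738564-110738593, plus strand: CCCCatCCCCatccgcccacccatcgtccc

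The third set is the most A- and T-rich 30 bases of the 2 coding peaks with the lowest GC content, with AAAA and TTTT in capitals. Ttc3 encodes a ubiquitin ligase and Mpp6 a membrane scaffold.
Ttc3, chr16:94388281-94388310, plus strand: aagatgctttaaattggatAAAAtacacgg
Mpp6, chr6:50178403-50178432, plus strand: tcaTTTTgattataatccattcaatgataa

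The fourth set sets 3 coding peaks beside a pseudogene that carries nearly the same bases, with the bases that differ in capitals. Such pairs matter here because a read from one could be placed at the other.
Hsp90aa1, chr12:110692215-110692244, minus strand: caagaatgacaaatcTgtgaaggatctggt
Gm12346, chr11:77295658-77295687, plus strand: caagaatgacaaatcAgtgaaggatctggt
Rpl6, chr5:121206699-121206728, plus strand: gaagctgctgagccaCggcaagaagccctt
Gm6136, chr1:86909262-86909291, minus strand: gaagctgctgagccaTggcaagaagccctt
Actb, chr5:142903829-142903858, minus strand: gAtcagcaagcaggagtaCgatgagtcCgg
Gm15725, chr16:37883575-37883604, plus strand: gCtcagcaagcaggagtaGgatgagtcTgg

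The coding peaks were deep in the IP and shallow in the input. Their IP reads ran from 427 to 26278 with a median of 1723, and their input reads from 0 to 10556 with a median of 97.5. The IP:input ratio, which is IP reads per aligned read divided by input reads per aligned read, had a median of 14.2 (interval of the median 13.3 to 15.4) and quartiles of 9.67 and 22.6. When the library totals were uniquely aligned reads, every ratio was multiplied by 0.613, and the median was 8.73 with quartiles of 5.93 and 13.8. Medians and quartiles of ratios were taken with 0.5 added to each read count, and ratios of single peaks without it. The ratio was between 5 and 50 in 290 coding peaks, below 5 in 18 and above 50 in 16. Its exact 95% interval lay above 1 in all 324 coding peaks, as it did in 99.4% of the chromosome peaks, so the count says nothing particular about coding sequence. By uniquely aligned reads it lay above 1 in 322. These intervals compare the 2 libraries and cover counting error only, since reads copied in library amplification are not independent molecules.

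The ratio was lower where the input was deeper. When the coding peaks were ordered by input reads and divided into 4 groups of 80 to 82, the median ratio was 21.7 in the group with the fewest input reads, then 15.7, 12.8 and 10.2. Input reads are the denominator of the ratio, so this order is a description with no test.

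The most IP reads lay over Rps27rt, an intronless gene (chr9:114982561-114982780) related to the ribosomal protein gene Rps27. It had 26278 IP and 10556 input reads, for a ratio of 2.08 (2.03 to 2.12), and its sequence was matched at 100% identity by Rps27. Among peaks with no copy, the start of Eef1a2 (chr2:181155241-181155450, exon 2), the elongation factor of neurons and muscle, came first by IP reads. It held 16994 IP and 1120 input reads, for a ratio of 12.6 (11.9 to 13.4). Map2, which encodes a microtubule-associated protein of dendrites, had 13487 IP reads against 626 in exon 7 (chr1:66413001-66413600), a ratio of 17.96 (16.6 to 19.5). The other 7 of the 10 peaks with the most IP reads lay in Prrt2, Cdk5r2, Sap18b, Sobp, Nefl, Tubb5 and Rpl6. Their ratios ran from 6.34 in Tubb5, a beta-tubulin, to 27.8 in Prrt2, a presynaptic membrane protein. The peaks of Prrt2, Sap18b and Rpl6 had near-identical copies in other genes. A large IP count thus went with small and large ratios alike.

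The 10 highest ratios among peaks with at least 100 IP and 10 input reads were in Sparc, Dnaja1, Stmn4, Fam177a, Phax, Tpm3-rs7, Srsf4, Ik, Snap25 and Hsp90aa1. Sparc, a secreted matrix-binding protein of vascular and meningeal cells, had 1897 IP reads against 13 input reads in exon 10 (chr11:55395801-55396000) and a ratio of 122 (71.0 to 229). Dnaja1, a cochaperone of Hsp70, had 1630 against 15 reads, a ratio of 90.6 (54.8 to 162). Stmn4, a stathmin that binds tubulin, had 3415 against 35 reads, a ratio of 81.3 (58.4 to 117). The intervals of these 3 overlapped, so their order was not resolved at this input depth. Snap25, a SNARE protein of synaptic vesicle fusion, stood on more reads, with 4296 against 65 and a ratio of 55.1 (43.1 to 71.5). The peaks of Dnaja1, Fam177a, Tpm3-rs7 and Hsp90aa1 in this ranking had near-identical copies in other genes. What part the copies had in their ratios was not tested.

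The lowest ratios were in Atp6v1f, Rps4x, Rps27rt, Dpysl2, Tuba1c and Tmsb4x. Atp6v1f, a subunit of the vacuolar proton pump, had 691 IP reads against 403 input reads and a ratio of 1.43 (1.26 to 1.62). Rps4x, a ribosomal protein of the small subunit, had 1527 against 791 and a ratio of 1.61 (1.48 to 1.76). Dpysl2, a tubulin-binding protein of growing axons, and Tmsb4x, which sequesters actin monomers, had no near-identical copy and ratios of 2.29 (2.03 to 2.60) and 2.60 (2.38 to 2.85). All 6 ratios were below the lower quartile of the coding peaks, which follows from their choice as the lowest. By uniquely aligned reads Atp6v1f had a ratio of 0.876 (0.774 to 0.993), below 1, and the interval of Rps4x covered 1 at 0.986 (0.905 to 1.08).

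Fewer than 10 input reads lay under 5 coding peaks. Ywhaq, a 14-3-3 adaptor protein, had 5336 IP reads and no input read, and its ratio was at least 1205 by the lower limit of the interval. Rpl7a had 5064 IP reads and 1 input read in exon 4, while its other coding peak, in the same gene, had 4103 and 261 reads and a ratio of 13.1 (11.6 to 14.9). Zfp384 and Pcp4 had 1 input read each and Ppp4r2 had 3. Of these 5 peaks 4 had near-identical copies in other genes. The copy search needed at least 100 matched exonic bases. The Pcp4 peak held only an exon of 52 bases, 24.8% of the peak, so no copy could be found for it. The sequence under the exon 4 peak of Rpl7a recurred in 69 other genes, and that under its other coding peak in 32. What part the copies had in the missing input reads was not tested.

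A near-identical copy, meaning at least 95% identity over at least 100 bases in the transcript of another gene, was found for 48 coding peaks in 43 genes (14.8%). Only the exonic bases of a peak were searched, so a peak with fewer than 100 of them could not have one. The copies lay in pseudogenes alone for all but 11 peaks. The pairs printed above show how little separated some of them: over 200 aligned bases the Hsp90aa1 peak and Gm12346 had 1 mismatch, and over 144 aligned bases Rpl6 and Gm6136 had 2. The median ratio was 16.3 for coding peaks with copies and 14.2 for the 276 without.

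Coding peaks were compared with the other parts of the mRNA, first over all peaks and then within genes. Over all peaks the median ratio was 8.42 in 5' UTRs (quartiles 4.89 and 14.3), 14.2 in coding sequence and 15.7 in 3' UTRs (10.1 and 24.7). Median input reads were 161, 97.5 and 104.5 in the same order, and median IP reads 1482, 1723 and 1930. These medians mix different genes, chromosomes and depths, so the comparison within genes is the closer one. There each gene gives its own fold between regions, with an exact conditional 95% interval, and the library totals cancel.

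**Figure D1:**
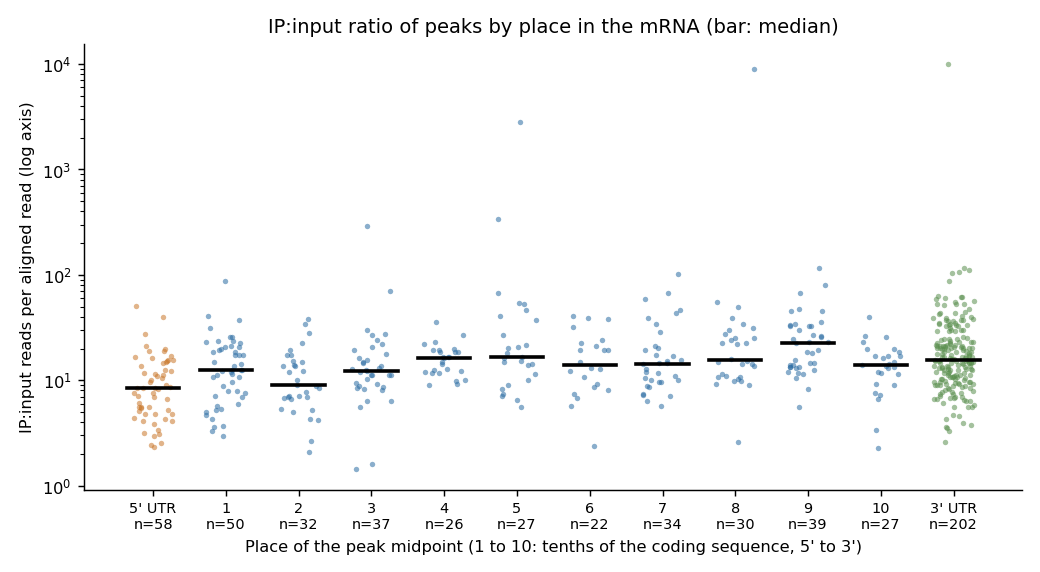
The IP:input ratio (log axis, with 0.5 added to each count) of every peak in 5' UTRs (58 points), in each successive 10% of the coding sequence (324 points) and in 3' UTRs (202 points), with black bars at the medians. The medians rose from 8.42 in 5' UTRs through 12.6, 8.92 and 12.2 in the first 30% of the coding sequence to values between 13.997 and 22.5 beyond it.

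In 17 genes with both a coding and a 5' UTR peak, the coding sequence had the higher ratio in most. The interval lay above 1 in 13 genes, below 1 in 1 and covered 1 in 3, and the median fold of coding over 5' UTR was 2.12. This comparison was added after the values had been seen. Snap25 had the largest fold, with 4296 IP and 65 input reads in the coding sequence against 4431 and 408 in the 5' UTR. The IP reads of the 2 peaks were nearly equal and the input reads were not, and the fold was 6.05 (4.66 to 8.06). Maged1, a MAGE-family protein of developing neurons, had 2026 and 103 reads against 3002 and 847, a fold of 5.53 (4.48 to 6.93). Map2 had 13487 and 626 reads against 4365 and 430, a fold of 2.12 (1.86 to 2.42). Rbm4, a splicing regulator, went the other way with 1277 and 255 reads in the coding sequence against 1869 and 204 in the 5' UTR, a fold of 0.547 (0.446 to 0.669). By the fold alone, without its interval, the coding sequence was higher in 15 of the 17 genes. Without coding peaks that held the start codon, 16 genes remained, with a median fold of 2.15 and 14 folds above 1.

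In 52 genes with both a coding and a 3' UTR peak, neither region was favoured. The coding sequence had the higher ratio in 28 genes and the 3' UTR in 24. The interval placed the coding sequence above the 3' UTR in 18 genes and below it in 13, and covered 1 in 21. The median difference was 0.08 on the log2 scale (quartiles -0.46 and 0.53), and the 2 ratios were within 2-fold of each other in 43 genes. The other 195 genes with a coding peak had no 3' UTR peak in the list.

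Among the 50 of these genes with at least 10 input reads in each region, 3 had a coding ratio over 2-fold higher and 4 a 3' UTR ratio over 2-fold higher. Ncam2, a neural cell adhesion molecule, had 597 IP and 28 input reads in its coding peak against 431 and 52 in its 3' UTR, a fold of 2.55 (1.56 to 4.30). Itm2b, a membrane protein processed at the cell surface, had a fold of 2.36 (1.60 to 3.60) and Sparc one of 2.21 (1.12 to 4.77). In the other direction Dad1, a subunit of the oligosaccharyltransferase, had 1393 and 268 reads in its coding peak against 1254 and 86, a fold of 0.358 (0.273 to 0.462). Sdc3, a heparan sulfate proteoglycan of neurons, had 1409 and 397 reads against 5476 and 593 over 3 UTR peaks, a fold of 0.384 (0.333 to 0.443). Naa60 and Pianp followed with folds of 0.451 (0.249 to 0.814) and 0.474 (0.265 to 0.817). The differences within single genes were therefore resolved in both directions while their median was near 0.

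**Figure D2:**
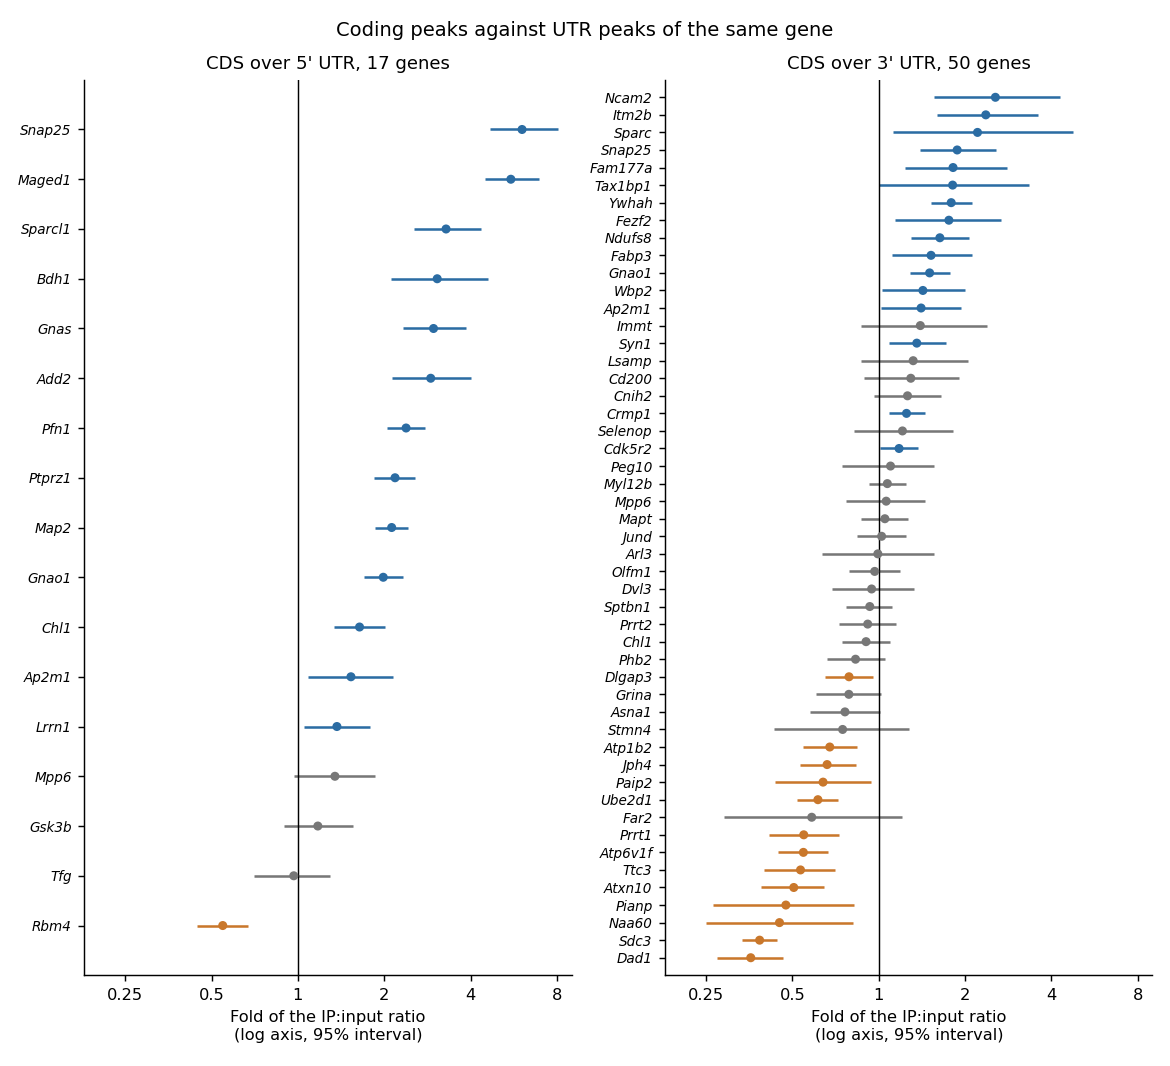
The fold of the IP:input ratio of coding peaks over 5' UTR peaks (left, 17 genes) and over 3' UTR peaks (right, the 50 genes with at least 10 input reads in each region) of the same gene, on log axes with exact 95% intervals. Blue marks an interval above 1, orange below 1 and grey one that covers 1, with 13 blue genes and 1 orange gene on the left and both colours in like numbers on the right.

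Peaks lay along the whole coding sequence. The midpoint was at a median of 46.8% of its length (quartiles 19.5% and 76.5%), with 172 peaks on the 5' side of the middle and 152 on the 3' side. The first 10% of the coding sequence held 50 peaks (15.4%, 11.7% to 19.8%), and each later 10% held between 22 and 39. The start codon lay in 43 peaks and the last coding base in 17. Peaks that held the start codon had a median ratio of 12.2 (quartiles 5.56 and 20.1), and the 264 that held neither end had one of 14.5.

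The first 30% of the coding sequence had lower ratios than the remainder. Its 119 peaks had a median ratio of 12.005 (quartiles 7.12 and 18.5), and the other 205 had one of 15.5 (11.3 and 24.98). Median IP reads were 1516 and 1795 and median input reads 110 and 85. Without peaks that had copies the medians were 12.003 and 14.9, and without chromosome 6 they were 12.6 and 16.4. The boundary at 30% was chosen after the values had been seen, so no test is given.

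The peak nearest a start codon was that of Ndufb10, whose midpoint lay at 0.190% of the coding sequence. It had 6856 IP reads against 1597 input reads and a ratio of 3.58 (3.39 to 3.78). The start-codon peaks of Paip2, which binds the poly(A)-binding protein, and Cend1, which promotes neuronal cell-cycle exit, had ratios of 21.1 (16.3 to 27.7) and 22.5 (19.05 to 26.7). Nearest the other end were Sptbn1, a spectrin, at 8.96 (7.74 to 10.4), Aplp1, an amyloid precursor-like protein, at 11.7 (10.4 to 13.3), and Rpl31, a ribosomal protein, at 14.3 (12.6 to 16.3). Both low and high ratios thus occurred at the start codon.

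Coding peaks lay in long exons. The exon with the midpoint had a median length of 408.5 bases, where the median coding exon of all genes was 136 bases and a coding base of the same genes lay in an exon of 261 bases in the median. An exon longer than 1000 bases held 107 peaks, and 79 peaks lay in the last exon. The exon was shorter than the peak in 85 cases. The median peak was 205 bases long (200 to 1200) with 88.6% of its bases in coding sequence, 131 peaks were wholly coding and 19 were less than 50% coding. The caller worked in bins of 200 to 290 bases along the genome.

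One coding peak was the rule, with 199 genes of that kind, and 48 genes held 125 coding peaks between them. The highest and lowest ratio of such a gene differed by a median of 1.65-fold, and the exact interval of that fold lay above 1 in 30 genes. The difference was over 2-fold in 17 genes and over 3-fold in 4. Of those 4, Rpl7a and Zfp384 each had a peak with 1 input read and near-identical copies in other genes. As the highest and lowest peaks were picked by their ratios, these counts describe spread and test nothing.

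Apc, a scaffold of the Wnt pathway, had the most coding peaks with 7, all in exon 16. They ran over bases 2447 to 8247 of the coding sequence by their midpoints, and their ratios were 11.3, 14.3, 13.2, 15.5, 13.4, 13.4 and 13.7 from 5' to 3'. All 7 intervals overlapped, but the fold of the highest over the lowest peak, picked by their ratios, was 1.36 (1.007 to 1.85). Crebbp, a histone acetyltransferase, had 6 peaks, with the lowest ratio of 7.62 (6.29 to 9.31) in exon 2 and the highest of 22.9 (17.1 to 31.5) in exon 31. Exon 31 alone held 4 of the 6 peaks, from 11.5 to 22.9. None of the 6 Crebbp peaks had a deposited adjusted p of at most 0.05. Robo1, a Slit receptor of growing axons, had a ratio of 4.33 (3.52 to 5.35) in exon 4, 576 IP reads against 111, and of 11.3 to 14.7 in its other 4 peaks. Ptprz1, a receptor phosphatase of radial glia, ranged from 6.44 to 15.2 over 5 peaks with no order along the mRNA.

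Pja1, a ubiquitin ligase, and Zfp638, a zinc finger protein, had 4 peaks each, from 18.7 to 32.2 and from 7.17 to 11.2. Hsp90ab1, the constitutive cytosolic Hsp90, had 17.3 (15.4 to 19.5) in exon 2 and 43.2 (36.2 to 51.9) in exon 8 at almost equal IP counts of 6284 and 6527, with 303 and 126 input reads. Its stress-inducible relative Hsp90aa1 had the widest spread among genes with at least 10 input reads under each peak, 54.9 (43.6 to 70.2) in the 5' peak and 13.3 (11.9 to 14.9) in the 3' peak, a 4.11-fold difference. Both Hsp90aa1 peaks had a near-identical pseudogene copy. Hnrnpr, which binds pre-mRNA, was high in all 3 of its peaks at 33.3 to 39.0, and Eif4g1, the scaffold of translation initiation, was low in all 3 at 8.08 to 8.91.

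When the most 5' peak of each of the 48 genes was set against its most 3' peak, the last was higher in 15 genes by the interval and the first in 8, and 25 intervals covered 1. The median fold of last over first was 1.06. Among the 40 genes whose first peak did not hold the start codon the counts were 12 and 8, with a median fold of 1.02. This comparison too was added after the values had been seen.

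**Figure D3:**
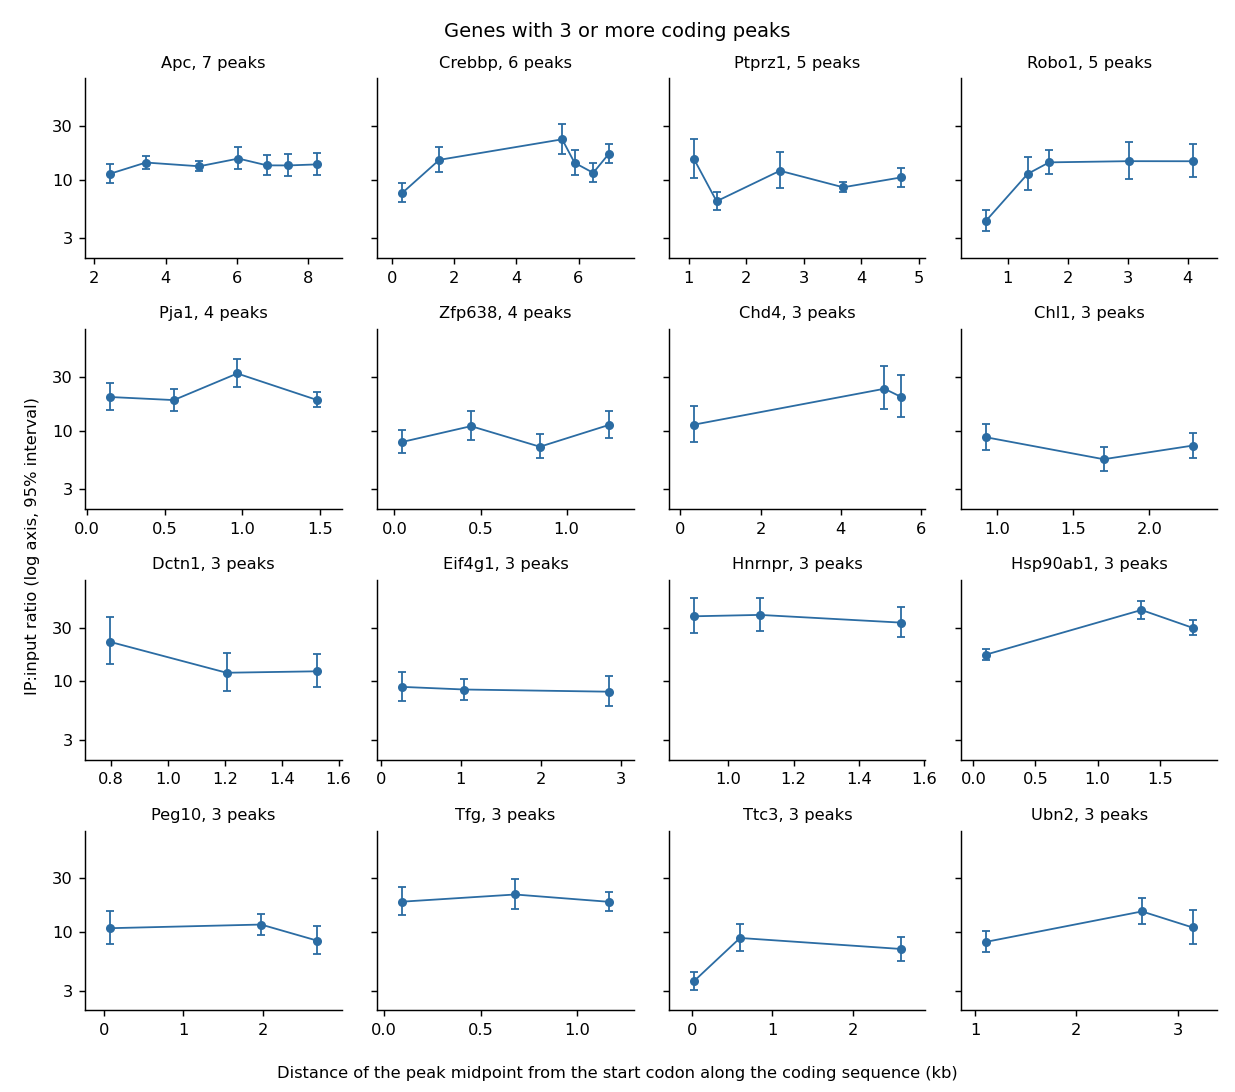
The IP:input ratio (log axis, exact 95% interval) of each coding peak of the 16 genes with 3 or more of them, against the distance in kb of the peak midpoint from the start codon along the coding sequence. The 7 peaks of Apc lay between 11.3 and 15.5, while the first peaks of Robo1 (4.33) and Ttc3 (3.66) lay below the later ones of the same gene.

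The coding bases of the peaks were slightly richer in GC than the remainder of the same coding sequence. Median GC was 54.3% in the peaks and 52.1% outside them, with a median difference of 1.25 percentage points, higher in 187 peaks and lower in 137. C was higher by a median of 1.68 points (196 peaks higher, 128 lower) and T changed by -1.43 points (114 higher, 210 lower), while A and G differed by -0.11 and -0.78 points. In the 43 peaks with the start codon GC was 58.9% against 51.1%, a median difference of 8.64 points, and in the others the difference was 0.63 points, higher in 156 and lower in 125. The values for single peaks were wide apart, from 33.3% to 81.1% GC, with the lowest in Ttc3.

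The C-rich and GC-poor peaks shown above had unlike ratios. Of the C-rich peaks, C1qbp had 1671 IP and 110 input reads and a ratio of 12.7 (10.4 to 15.5) and Mtss1l one of 10.9 (9.64 to 12.4). The GC-poor peaks had 8.85 (6.74 to 11.8) in Ttc3 and 21.1 (13.4 to 35.4) in Mpp6. Base content in these 4 peaks did not order the ratios.

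**Figure D4:**
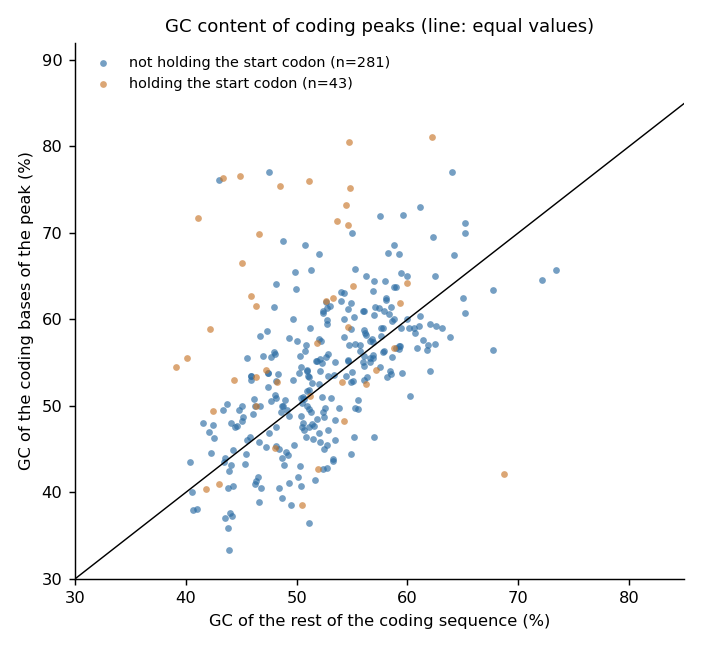
GC content (%) of the coding bases of each of the 324 peaks against that of the remainder of the same coding sequence, with the line of equal values, and peaks that held the start codon (43) in orange. The orange points lie mostly above the line, by a median of 8.64 points, and the blue ones scatter about it with a median of 0.63 points.

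Short motifs were counted in the 163 coding peaks with at least 193 coding bases, 193 being the median, in a window of 193 bases. The same count was made in 2672 windows of that length tiled along the coding sequences of the same genes and in 171340 windows of all protein-coding genes. GAAGAA, a purine motif of splicing enhancers, was in 12.9% of the peaks (8.16% to 19.02%), in 22.6% of the windows of the same genes and in 17.98% of all windows. GGGG on the opposite strand, which is CCCC in the mRNA, was in 56.4% of the peaks (48.5% to 64.2%), 47.9% of the windows of the same genes and 45.1% of all windows. GGGG on the mRNA strand was in 36.2%, 36.6% and 40.5%, and GGAGGA in 17.8%, 15.3% and 15.1%. TGTANATA, the Pumilio motif, was in 1 peak (0.613%), and in 0.511% of all windows, and ATTTA in 6.75% against 9.17%. A motif here is a run of letters and not a shown binding site, and the windows were restricted to peaks with long coding stretches.

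Coding peaks were unevenly spread over the chromosomes, and the lowest IP count of a listed coding peak differed between chromosome strands. Members occurred on 29 of the 40 strands of these chromosomes, and those 29 strands carried 73.7% of the 21353 protein-coding genes. The lowest IP count of a coding peak was 427 for plus-strand genes of chromosome 6, 450 for plus-strand genes of chromosome 16, 5847 for minus-strand genes of chromosome 17 and 26278 for minus-strand genes of chromosome 9, where Rps27rt was the only member. Chromosome 6 plus-strand genes gave 60 coding peaks in 37 genes and chromosome 16 plus-strand genes 38 in 24, together 30.2% of all members. Their median IP count was 595 and that of the other 226 was 2289. Chromosomes 3 and 13 had none. Which genes appear is therefore bound to the chromosome strand, and a gene without a peak cannot be taken as one without Mov10-associated RNA.

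The adjusted p deposited with the peaks also went by chromosome strand. It was at most 0.05 in 294 coding peaks (90.7%), next to 90.8% of all chromosome peaks. On 26 strands every coding peak passed, with a highest adjusted p of 3.13e-14, and on the other 3 every one failed, with an adjusted p of 1. The 30 failing peaks lay in 21 genes, those on the minus strands of chromosomes 16 and 8 and the plus strand of chromosome 11. They had a median of 1565.5 IP reads, 109 input reads and a ratio of 14.5 (range 6.41 to 33.0), where the passing ones had 1736, 95.5 and 14.2. All 30 had an interval above 1. Among them were Mapt, the microtubule-associated protein tau, with 2706 IP and 209 input reads and a ratio of 10.8 (9.37 to 12.5) in exon 9, Hmga1b with 13.1 (11.7 to 14.8), Prr36 with 16.4 (14.1 to 19.1), Tfg with 18.6 (15.4 to 22.6) and Usp34 with 12.6 (10.8 to 14.9). By the second deposited error measure, an empirical false discovery rate of at most 0.05, 123 coding peaks passed, against 37.7% of all chromosome peaks. That measure went by chromosome strand as well. The 123 were every coding peak on plus-strand genes of chromosomes 6, 12 and 16 and minus-strand genes of 2, 14 and 18. No coding peak of another strand passed.

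**Figure D5:**
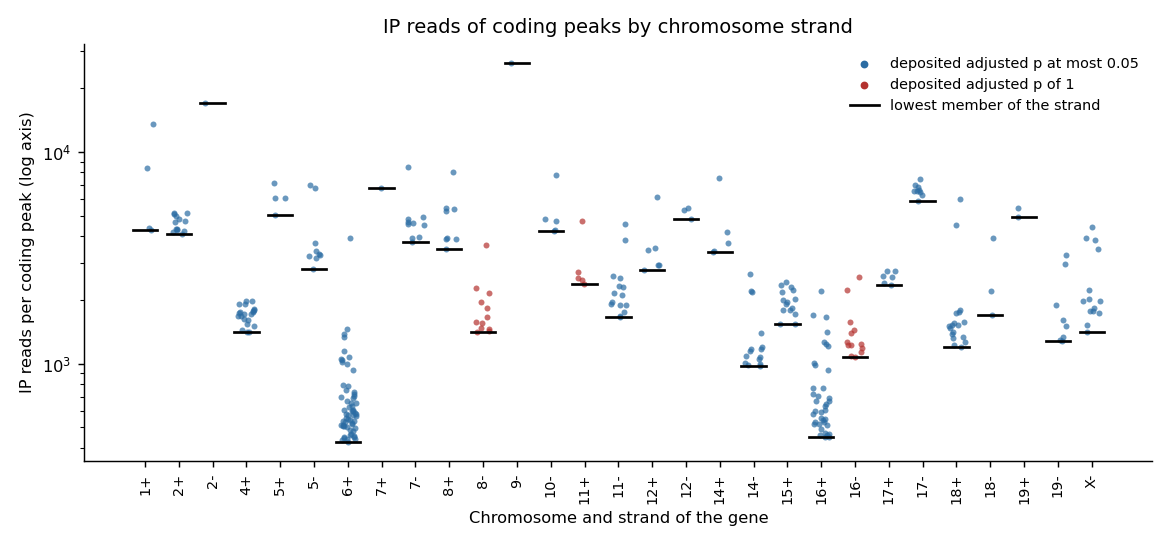
IP reads (log axis) of each of the 324 coding peaks by chromosome and strand of the gene, with a bar at the lowest member of each strand. Blue points had a deposited adjusted p of at most 0.05 and red ones, confined to 3 strands, an adjusted p of 1, and the lowest member ranged from 427 to 26278 IP reads.

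The genes with coding peaks were read by function against 22 lists, which held 100 of the 247 genes. Ratios of lists are medians over peaks with 0.5 added to each count, to be read beside 14.2 for all coding peaks, and genes on strands without members could not contribute. Over all protein-coding genes 1.16% had a coding peak, and 1.57% of the 15728 on strands with members. The largest counts were in hnRNPs and splicing factors (13 of 81 genes, 59 of them on strands with members), axon guidance and adhesion (11 of 53, 39 on such strands), ribosomal proteins (10 of 86, 64) and microtubule genes (9 of 49, 36). The lists were drawn up with earlier results known and are not complete families, so the shares are not set against each other. The lists of membrane traffic (31 genes on strands with members), glycolysis and central metabolism (26) and blood and microglia markers (13) had none, which at the share over all genes is no result about them, and genes of membrane traffic outside the list, such as Ap2m1 and Arl3, had coding peaks.

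Cytoskeletal genes had coding peaks in 7 of 52 actin genes, with a median ratio of 7.76, and in 9 of 49 microtubule genes, with one of 11.7. Actb, cytoplasmic actin, had 6994 IP reads against 1742 and a ratio of 3.35 (3.18 to 3.53), and Myl12b, a myosin light chain, had 6992 against 353 and 16.5 (14.8 to 18.4). The Actb peak was 580 bases long and the Myl12b peak 205, and each had a near-identical copy in 1 other gene. Among tubulins Tubb3, the neuronal beta-tubulin, had 8.83 (7.93 to 9.84) and 5.70 (5.29 to 6.14) in its 2 peaks. Of the intermediate filament genes, 2 of 11 had peaks, and in Nefl, the light neurofilament subunit, the ratio was 16.6 (15.0 to 18.5) in exon 1 and 34.1 (28.0 to 41.9) further 3'.

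Chaperones had coding peaks in 5 of 39 genes with a median ratio of 32.7, from both Hsp90 genes, Hspa5, the Hsp70 of the endoplasmic reticulum, and the cochaperones Dnaja1 and Dnaja2. Of their 8 peaks 3 had near-identical copies. The list of calmodulin, G protein and 14-3-3 genes had 5 of 30 genes and a median of 32.3, with Gnao1, the alpha subunit of the major brain G protein, at 31.2 and 33.6 in its 2 peaks, and Ywhaq included. Translation factors had 5 of 40 genes and a median of 11.2.

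Ribosomal protein genes, 10 of 86, had a median ratio of 9.19, and 9 of their 12 peaks had copies. A 3' UTR peak lay in 1 of the 86 ribosomal protein genes and in 177 genes among all 21353, so that count is no result about them. Respiratory chain genes had 3 of 95 genes and a median of 6.87, with Ndufb10 at 3.58, Cox7a2l at 6.88 and Ndufs8 at 12.2. Splicing factors and hnRNPs had a median of 14.5 over 17 peaks, 8 of them with copies, and reached 68.6 (46.0 to 107) in Srsf4.

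Synaptic vesicle genes had coding peaks in 6 of 50 genes with a median ratio of 16.7. Pclo, a scaffold of the active zone, had 6034 IP reads against 124 and a ratio of 40.6 (34.0 to 48.9), and Nrxn2, a presynaptic adhesion protein, had 10.2 and 11.9 in its 2 peaks. Postsynaptic genes had 6 of 47 genes and a median of 13.3, among them the scaffold genes Dlgap1, Dlgap3 and Dlgap4. Axon guidance and adhesion genes had a median of 12.4 over 18 peaks, with Cdk5r2, an activator of the kinase Cdk5, at 24.5 (21.8 to 27.7) and the first peak of Robo1 the lowest. Transcription regulators had 5 of 56 genes and a median of 15.4, with Atf4, a factor of the stress response, at 39.6 (29.6 to 54.2). Chromatin and nucleolar genes had 3 of 56 genes and a median of 19.6, ion pumps and transporters 2 of 24 and 10.6, and the listed ubiquitin and proteasome genes 1 of 70, the proteasome subunit Psmd8, at 39.2 (32.1 to 48.3). Ubiquitin genes outside that list, among them Pja1, Ttc3 and Ube2d1, had coding peaks as well.

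The neuronal genes Map2, Tubb3, Snap25, Syn1 and Nefl, in tissue labelled brain, had coding peaks, but they were picked after their peaks were seen and no neuron list was counted. Glial and radial glial markers had 3 of 31 genes, namely Apoe, Ptprz1 and Sparcl1, with a median ratio of 11.2, and Sparc was the only one of 23 vascular and meningeal markers. A ratio compares IP with input in the whole tissue, and the cells from which a fragment came cannot be told apart. Imprinted genes had 4 of 31 genes with a median of 11.1, from Ndn at 7.83 (7.25 to 8.47) to Gnas, the stimulatory G protein alpha subunit, at 46.2 (37.3 to 57.7).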

How the data were processed

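RNA from P2 whole brain was sequenced as 1 Mov10 IP library and 1 input library. Per the labels and the study's methods, the authors aligned reads to mm10 with TopHat2 2.1.1 (bcl2fastq 2.17.1.14 before it) and called peaks with RIPSeeker. The deposited peak list gives, for each peak, raw read counts of both libraries and the authors' adjusted p and empirical false discovery rate in 1 attribute column. Those deposited error measures were used only to count members. Ratios were divided by aligned reads, 71522027 in the IP and 59620379 in the input, as the study's methods give them, or, as an alternative, by the uniquely aligned reads, 57005129 and 29124706. The caller was trained on uniquely placed reads, and each read with several placements was then assigned to 1 of them by the model's posterior probability. Library totals within the peak list are not depths and were not used.

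Peak midpoints were placed on GENCODE M21 transcripts, in the order CDS, 3' UTR, 5' UTR. Place, exon and base content were taken on the transcript with the longest CDS at the midpoint. Copies were sought with BLAST+ 2.17.0 (megablast, 95% identity over 100 bases) in transcripts of other genes. Each peak's ratio has an exact conditional binomial 95% interval, each fold within a gene an exact conditional odds ratio interval, and each median an interval from order statistics. No p-value was computed, as there is 1 library a group. Intervals were tested on simulated data. Scripts used Python 3.11.15, pandas 2.3.3, numpy 2.4.6, scipy 1.17.1 and matplotlib 3.10.9.

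Genes named in full were the 10 peaks with the most IP reads, the 10 highest and the lowest ratios with at least 100 IP and 10 input reads, those under 10 input reads, those nearest either end of the CDS, the failing peaks with the most IP reads, genes with several peaks, the largest differences within genes in each direction and the leading genes of 22 lists. Genes named for their base content, beside a 5' UTR peak or with a pseudogene copy were chosen after their values were seen. The members, the lists and this rule were chosen with earlier results of these data known. No genome sequence was used, so sequences come from the transcripts. Items withheld from the text are not reported here.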

Additional observations from a re-analysis of the deposited data

How the results depend on the processing

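Of 35 alternatives, 30 moved no value past the spread of the peaks or genes, or past 1.5 times for a count, 3 did, and 2 put the ratio of a single peak below 1. With the CDS sought on the strand of the peak itself, 2 peaks were coding in place of 324. With the empirical false discovery rate in place of the adjusted p, 123 coding peaks passed in place of 294. Both counts take or leave all coding peaks of a chromosome strand together, so neither grades single peaks. With ratios divided by uniquely aligned reads the median ratio was 8.73 in place of 14.2, and 322 in place of 324 intervals lay above 1, with Atp6v1f at 0.876 and Rps4x at 0.986. That division multiplies every ratio by 0.613, so folds within genes are as before. A CDS share of at least 50% of the peak gave 316 coding peaks, the longest CDS of each gene 319, and leaving out midpoints that another transcript places in a UTR 310. The log2 difference between CDS and 3' UTR within genes was 0.01 without near-identical copies and 0.05 with at least 10 input reads. The GC difference was 2.09 points without copies, 1.08 over all exonic bases and 0.63 without peaks on the start codon. The median fold of CDS over 5' UTR was 2.12 to 2.25. The settings without chromosome 6 or 16, without UTR overlaps and without start codon peaks, and both comparisons with 5' UTR and of first with last peaks, were chosen after seeing the data. No paired analysis was possible because each group is 1 library. The median of 97.5 input reads a peak bounds the precision, and 21 of 52 intervals between CDS and 3' UTR covered 1, some of them with folds near 1 on deep input.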
